A study of Mus musculus with 4 samples.

Results

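The transcriptome described here is that of GC-1 cells that carried an empty expression vector, as measured on 2 of the 4 arrays of the series. GC-1 is a line established from mouse type B spermatogonia with the large T antigen of simian virus. The members were taken by their titles, which number the arrays 1 and 2, and no measured value entered that choice. The cells on both arrays had been transfected with the plasmid backbone, were kept in high-glucose DMEM with serum, and were harvested 48 h after transfection, so transfection is part of the state described. The other 2 arrays hold the same line with murine Hdac6, tagged with myc/DDK and driven by the CMV promoter, harvested at the same time. Age and sex of the animal behind the line do not stand in the labels, nor whether arrays 1 and 2 came from separate cultures. Their spread may thus be technical, and with 1 group of 2 arrays no test was made: both values are given for each gene, empty vector 1 first.

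Spermatogonia are the mitotic germ cells at the base of the seminiferous tubule. They renew themselves or turn to differentiation under retinoic acid and KIT signals, and then enter meiosis. In the tubule they are held by Sertoli cells, which supply GDNF and KIT ligand. Contractile peritubular myoid cells surround the tubule, and steroid-producing Leydig cells lie between tubules. Germ cells hold a program of RNA-binding proteins and piRNA factors that is silent in most body cells, and many of its promoters are rich in CpG.

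The germ cell markers were split on these arrays. Dazl, Mael, Nanos2 and Kit were well above background on neither array, while Ddx4, Piwil2, Zbtb16, Gfra1 and Id4 were so on both, all with weak signals. Levels above 0 were read for 3 of 32 general germ cell genes and for 7 of 24 genes of spermatogonial stem and progenitor cells. Among them were Ddx25, Itga6, Uchl1 and Etv5, and the strong members of the second list were mostly genes that many other cell types use. The Y-linked Ddx3y and Eif2s3y were not detected. Mesenchymal genes such as Col1a1, Fn1 and Sparc were strong, while Lum, Thy1, Nt5e and Tcf21 from the same list were not detected. Single genes of other lists, the keratins Krt14 and Krt18 and the Sertoli cell factor Wt1, were strong as well, while E-cadherin, Cdh1, and the Sertoli hormone Amh from the same lists were not detected. Some spermatogonial markers were thus well above background and others were not, and the cells are called by the name of the line. Olfactory receptor genes, which are used in the nose, that were well above background on both arrays had a median level of -4.71. Ddx4, Piwil2 and Gfra1 lay below that level, and Zbtb16 and Id4 above it. That median covers flagged receptor genes only. Over all 1079 measured ones it was -7.66, and each of these markers lay above that. Levels of different genes do not order the amounts of their transcripts, so neither comparison ranks the markers by amount.

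Each array carried 59305 spots that were not controls, for 56605 probes and 37074 gene names. A level is the log2 processed signal minus the array's own 75th percentile over probes, so level 0 marks that percentile. A gene name was called expressed if, on each array, the software flagged its strongest probe as well above background. Signals of different probes depend on probe sequence as well as on transcript amount, so levels of different genes do not order the amounts of their transcripts. The 75th percentile of the signal was 666 and 693 on the empty vector arrays, 66.4% and 65.1% of their spots were well above background, and 0 spots were saturated. The lowest level of a flagged probe was -6.19 and -5.92, and the median of the negative control spots lay at -8.44 and -8.19. The number of arrays limits the precision. Empty vector 2 lay closer to Hdac6 vector 1 than to empty vector 1: over 21869 names expressed on all 4 arrays, 0.581% differed by at least 2-fold between the former pair and 4.92% between the empty vector arrays. Empty vector 1 differed in 5.92% of names from Hdac6 vector 1 and in 4.92% from Hdac6 vector 2. Between empty vector 2 and Hdac6 vector 2 the share was 2.81%, and between the Hdac6 vector arrays it was 3.64%. By this count the pairs with empty vector 1 were the farthest apart. The median absolute log2 difference ordered the pairs otherwise. It was largest between the Hdac6 vector arrays, at 0.324. Between the empty vector arrays it was 0.268, and between empty vector 2 and Hdac6 vector 2 it was 0.270. The smallest, 0.173, was again that of empty vector 2 and Hdac6 vector 1.

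Of 37072 gene names measured on both empty vector arrays, 23338 (63%) were expressed, 1727 passed the flag on 1 array and 12007 (32.4%) on neither. Among protein coding genes of RefSeq, 15211 of 20486 were expressed (74.3%), against 1554 of 4000 long noncoding RNA genes (38.9%). The flag is a low bar. Of 1079 olfactory receptor genes, which are used in the nose, 268 passed it (24.8%), with a highest mean level of 0.97. A second band, a level above 0 on both arrays, held 10805 gene names (29.1%), 9011 of the protein coding genes (44%) and 3 of the olfactory receptor genes (0.278%). By the same rule 22039 gene names were expressed on the Hdac6 vector arrays. With the probe chosen on the empty vector arrays, 21869 of the 23338 names (93.7%) were expressed there too, and 13 names were called on both Hdac6 vector arrays and on neither empty vector array.

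**Figure D1:**
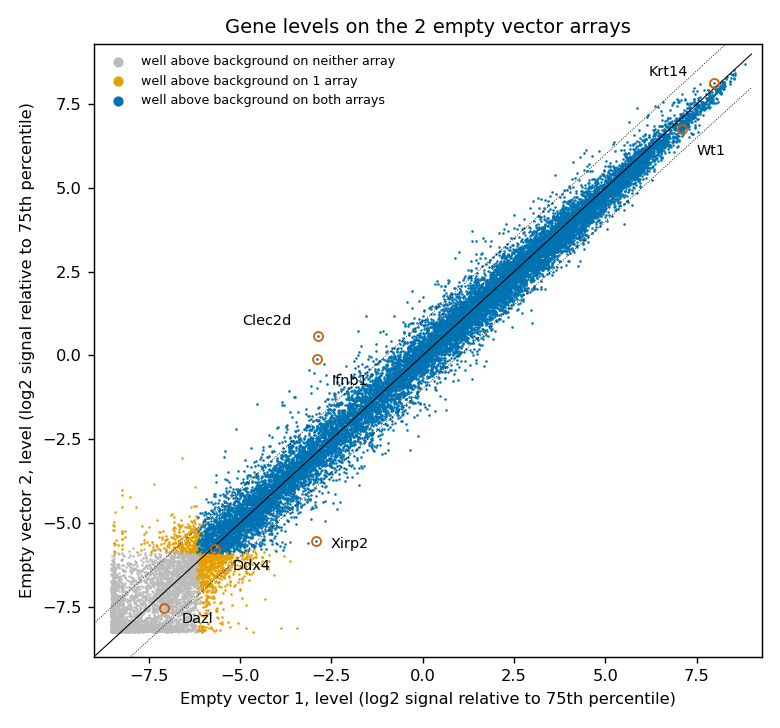
Level of each gene name with a RefSeq symbol on empty vector 1 (horizontal) and empty vector 2 (vertical), in log2 units above or below the 75th percentile. Blue, orange and grey points were well above background on both, 1 or neither array, dotted lines mark 2-fold, and circles mark named genes. Krt14 and Wt1 sit at the top, Dazl sits in the grey cloud, and Clec2d and Ifnb1 lie above the line of equal levels.

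Most genes of the general germ cell list were not called. Of 32 measured germ cell genes, 12 were expressed (37.5%) and 3 had levels above 0 (9.38%), against 74.3% and 44% of protein coding genes. Their median level was -7.16. The software's weaker flag, signal positive and significant, called 19 of the 32. The defining markers head the list. Dazl, an RNA-binding protein needed for germ cell development, read -7.08 and -7.56 (chromosome 17, 50426957 to 50427103, minus strand, files' build mm9). Mael, a piRNA pathway factor, read -8.32 and -8.04 (chromosome 1, 168131583 to 168131642, minus strand). These signals were well above background on neither array. Ddx4, the germ cell RNA helicase VASA, passed the flag at -5.69 and -5.77 (chromosome 13, 113388588 to 113388647, minus strand), close to the lowest flagged level. Piwil2, a PIWI protein that binds piRNAs, did so at -5.97 and -5.59. In a bulk sample, fewer cells of a type and less RNA per cell cannot be told apart. The strongest members were Ddx25, a testis RNA helicase, at 3.44 and 3.48 (1 of its 2 probes flagged), Taf7l, a TFIID subunit of germ cells, at 1.16 and 1.32 (1 of 2 probes), and the piRNA factor Tdrkh at 1.45 and 0.51 (3 of 3 probes). Dnd1, an RNA-binding protein, came next at -2.72 and -3.28. Tex14, a protein of germ cell bridges, read -2.59 and -4.08 and Pld6, the mitochondrial piRNA nuclease, -3.79 and -3.74. On both Hdac6 vector arrays 9 of the 32 genes were flagged.

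Genes of spermatogonial stem and progenitor cells were split. Of 24 members of that list, 18 were expressed (75%), near the 74.3% of protein coding genes. Levels above 0 were read for 7 (29.2%), against 44% of protein coding genes. Among the 24, 7 also stand in another identity list. The defining transcription factor Zbtb16 read -4.66 and -4.49, the GDNF co-receptor Gfra1 -5.09 and -4.87 and the inhibitor of DNA binding Id4 -3.29 and -4.04, all flagged and all below level 0. Nanos2, a translational repressor that keeps stem spermatogonia undifferentiated, was not well above background at -7.33 and -8.24. The strong members were mostly genes that many other cell types use. Itga6, a laminin receptor subunit, stood at 5.40 and 4.92 with 5 of 5 probes flagged. The ubiquitin hydrolase Uchl1 read 4.53 and 3.39, with 1 of 2 probes flagged. Transcription factors with levels above 0 were Etv5 at 4.06 and 3.18, Bcl6b at 3.66 and 3.28, Foxo1 at 3.04 and 3.12 and Pou3f1 at 1.45 and 2.14, the last named after its values were seen. Tspan8, a tetraspanin, read 2.20 and 2.99. Ret, which signals with Gfra1, was not well above background at -8.48 and -8.18 and was singled out after its value was seen.

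Of 14 genes of differentiating spermatogonia 8 were expressed (57.1%) and 3 were above 0 (21.4%), against 74.3% and 44% of protein coding genes. Kit, the receptor of KIT ligand and the classical marker of this stage, was not well above background with 3 of 3 probes, at -6.80 and -7.88 for the strongest (chromosome 5, 76052394 to 76052453, plus strand). Stra8, the retinoic acid target that precedes meiosis, was flagged on 1 array, at -5.76 and -7.25. Sohlh1 read -5.68 and -5.12 and Sohlh2, its partner among germ cell transcription factors, -3.50 and -3.37. The 3 members above 0 were Ccnd2, a D-type cyclin, at 4.42 and 5.53, the retinoic acid receptor Rarg at 2.60 and 3.01 and the meiotic histone methyltransferase Prdm9 at 0.64 and 0.34. The other probes of Rarg were not flagged, at -7.87 and -8.21 and at -7.93 and -6.41. A probe of Prdm9 was not flagged either, at -8.47 and -8.18. Ccnd2 and Rarg are used by many other cell types.

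Most meiotic and spermatid genes lay below level 0, with list medians of -5.34 and -5.11. Of 37 meiotic genes 19 were expressed (51.4%) and 3 were above 0 (8.11%), against 74.3% and 44% of protein coding genes. The synaptonemal complex proteins Sycp3, at -6.14 and -8.23, and Sycp1, at -6.00 and -8.08, were flagged on neither and on 1 array. Spo11, which makes the meiotic DNA breaks, passed the flag at -2.07 and -3.62, and the meiotic recombinase Dmc1 did not, at -6.11 and -5.89. The strongest value belonged to Mcmdc2 at 4.64 and 5.52, but 3 of its 4 probes were not flagged. Hspa2, a heat shock protein abundant in spermatocytes, read 1.37 and 0.46. Of 35 spermatid genes 20 were expressed (57.1%) and 2 were above 0 (5.71%). Prm1 and Prm2, the protamines that replace histones in sperm, read -3.95 and -3.27 and -4.56 and -4.39. The transition protein Tnp1 read -3.84 and -3.47, and the acrosomal protein Acrv1 was not well above background at -6.41 and -6.72. The 2 above level 0 were Odf2, which also serves at centrosomes of body cells, at 3.91 and 4.13, and Catsper2, a sperm calcium channel subunit, at 1.36 and 1.43.

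Promoters of germ cell genes that were not detected are shown beside that of Krt14, a strongly detected gene described further on, because they differ in CpG content. The contrast holds for these genes and not for detected genes in general. The sequences are the 250 bases before the gene start in RefSeq, build GRCm38.p6, read 5′ to 3′ on the gene's strand, with CG dinucleotides in capitals.
Dazl (chr17:50293621-50293870, minus strand): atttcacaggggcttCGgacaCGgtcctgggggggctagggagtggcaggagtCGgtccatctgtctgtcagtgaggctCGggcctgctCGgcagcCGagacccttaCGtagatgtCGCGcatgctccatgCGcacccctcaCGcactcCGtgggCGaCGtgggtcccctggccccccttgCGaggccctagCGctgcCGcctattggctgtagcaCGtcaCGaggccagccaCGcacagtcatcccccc
Mael (chr1:166238745-166238994, minus strand): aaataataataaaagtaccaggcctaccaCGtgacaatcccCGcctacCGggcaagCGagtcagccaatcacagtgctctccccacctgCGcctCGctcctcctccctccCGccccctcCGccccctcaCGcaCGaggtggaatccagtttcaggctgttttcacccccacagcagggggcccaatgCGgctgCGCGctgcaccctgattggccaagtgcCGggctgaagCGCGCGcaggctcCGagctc
Kit (chr5:75574737-75574986, plus strand): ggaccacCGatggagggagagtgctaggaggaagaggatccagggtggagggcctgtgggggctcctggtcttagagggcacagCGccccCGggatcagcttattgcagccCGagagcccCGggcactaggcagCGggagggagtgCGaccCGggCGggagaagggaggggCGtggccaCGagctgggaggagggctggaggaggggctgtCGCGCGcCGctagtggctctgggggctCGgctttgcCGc
Sycp3 (chr10:88459337-88459586, plus strand): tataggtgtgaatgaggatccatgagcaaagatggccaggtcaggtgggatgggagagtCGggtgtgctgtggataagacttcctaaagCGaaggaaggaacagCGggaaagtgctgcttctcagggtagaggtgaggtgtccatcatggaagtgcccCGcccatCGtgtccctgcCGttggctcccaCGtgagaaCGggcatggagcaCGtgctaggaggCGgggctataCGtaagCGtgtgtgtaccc
Krt14 (chr11:100206031-100206280, minus strand): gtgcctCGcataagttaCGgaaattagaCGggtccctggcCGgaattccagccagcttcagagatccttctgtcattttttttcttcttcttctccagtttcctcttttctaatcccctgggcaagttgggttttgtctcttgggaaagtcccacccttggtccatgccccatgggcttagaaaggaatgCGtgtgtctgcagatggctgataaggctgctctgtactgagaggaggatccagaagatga
In these windows Dazl has 20 CG dinucleotides, Mael 18, Kit 17, Sycp3 12 and Krt14 5. Over the 300 bases that RefSeq's table gives around a start, the observed over expected CpG ratio was 0.80 for Dazl, 0.78 for Mael, 0.62 for Kit, 0.67 for Sycp3 and 0.29 for Krt14. The expressed genes Ddx4 and Pcna, whose promoters are not printed, had 31 and 22 CG dinucleotides and ratios of 0.98 and 0.88.

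Over all genes, CpG-rich promoters went with higher levels. A promoter was found for 19476 genes, of which 46% had a CpG ratio above 0.6. The share was 60% among the 13389 expressed genes and 14.4% among the 5320 well above background on neither array. It was 76.4% among the 7466 genes with levels above 0. Germ cell genes did not follow this division: 11 of the 15 germ cell genes not well above background with a promoter had a ratio above 0.6 (73.3%), and so did 6 of the 9 expressed ones (66.7%). Of meiotic genes well above background on neither array, 9 of 15 did so (60%), and so did 9 of the 15 expressed ones (60%). Over whole lists, flagged or not, the share was 68% of 25 germ cell, 61.3% of 31 meiotic and 20% of 30 spermatid promoters. For other tissues it was 53.8% of 13 neural, 38.9% of 18 epithelial, 23.8% of 21 mesenchymal, 0 of 20 muscle and 0 of 15 liver promoters. The letters CACGTG, a palindrome and hence the same on both strands, stood in 11 of 25 germ cell promoters (44%) and in 8.05% of all promoters. They appear in the printed Mael and Sycp3 sequences and not in those of Dazl, Kit and Krt14. TATAAA, read on both strands, stood in 9.77% of the promoters of expressed genes and in 20.4% of those well above background on neither array. These matches describe letters and show no binding.

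**Figure D2:**
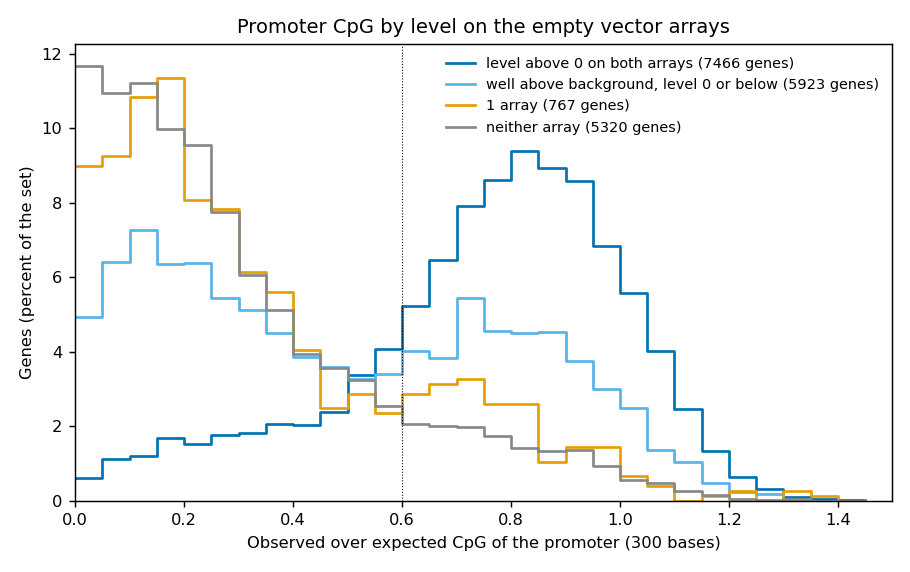
Observed over expected CpG of the 300-base promoter window (horizontal) against the percent of genes of each set (vertical). Genes with levels above 0 (dark blue, 7466 genes) mass to the right of the dotted line at 0.6, and genes well above background on neither array (grey, 5320 genes) mass to its left.

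Y-linked genes were not detected as a group. Of 10 measured members 1 was expressed and 0 were above 0, and the weaker flag called 5. The housekeeping Y genes Ddx3y, an RNA helicase, at -8.48 and -8.10 (chromosome Y, 599275 to 599334, minus strand), and Eif2s3y, a translation factor, at -8.01 and -6.19, were well above background on neither array. Uty, a histone demethylase relative, read -8.01 and -8.13, with 3 of 3 probes not flagged. Kdm5d, a histone demethylase, was the 1 expressed member at -4.29 and -4.57, and 5 of its 6 probes were not flagged. The testis-determining Sry was flagged on 1 array, at -5.95 and -5.98, and was named after its values were seen. Their X-linked relatives were not part of the list. Xist, the RNA that coats an inactive X chromosome, was not well above background either, at -6.43 and -6.41 (chromosome X, 100662174 to 100662233, minus strand), with 1 probe, as was its antisense Tsix at -6.43 and -6.62. Its activators Jpx, a noncoding RNA, and Rlim, a ubiquitin ligase, were expressed at -1.72 and -1.02 and 4.76 and 4.43. By chromosome, 477 of 815 protein coding X genes were expressed (58.5%), against 75% of the autosomal ones and 2 of 10 on the Y.

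Among the identity lists the mesenchymal one had the highest share of members above level 0. Of 35 members 31 were expressed (88.6%) and 21 were above 0 (60%), against 74.3% and 44% of protein coding genes. The median level of the list was 1.58. Collagen type I, the main fibrillar collagen, was read by Col1a1 at 7.02 and 7.08 (chromosome 11, 94813075 to 94813134, plus strand, 4 of 4 probes flagged) and Col1a2 at 5.79 and 6.58. Pdgfra, a growth factor receptor of mesenchymal cells, stood at 1.98 and 1.88 and the matrix proteoglycan Dcn at 6.54 and 7.17. Sparc, a collagen-binding matrix protein, stood at 7.81 and 7.91, and fibronectin, Fn1, at 7.91 and 7.55 with 4 of 4 probes flagged. The calcium-binding protein S100a4 read 7.44 and 7.81 and the intermediate filament vimentin, Vim, 6.49 and 6.84. The 4 members well above background on neither array were Lum at -6.36 and -6.61, Thy1 at -6.66 and -7.59, Nt5e at -6.64 and -8.14 and Tcf21 at -8.48 and -8.18. They encode a matrix proteoglycan, 2 surface proteins and a transcription factor of mesenchymal cells, and were named after their values were seen. On both Hdac6 vector arrays 30 of the 35 genes were flagged.

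Peritubular and smooth muscle genes were nearly all flagged, mostly at moderate levels. Of 16 members 15 were expressed (93.8%) and 7 were above 0 (43.8%), against 74.3% and 44% of protein coding genes. Acta2, smooth muscle actin, read 3.06 and 3.12 with 3 of 4 probes flagged. Myh11, smooth muscle myosin, read -1.83 and -2.20 with 1 of 4. Calponin, Cnn1, read 0.61 and -0.68 and desmin, Des, -3.46 and -4.21. The strongest members, Cald1 at 6.59 and 6.46, Smtn at 5.46 and 5.75 and Tpm1 at 4.39 and 4.56, encode actin-binding proteins. When every probe of a gene had to be flagged, 7 of the 16 remained.

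**Figure D3:**
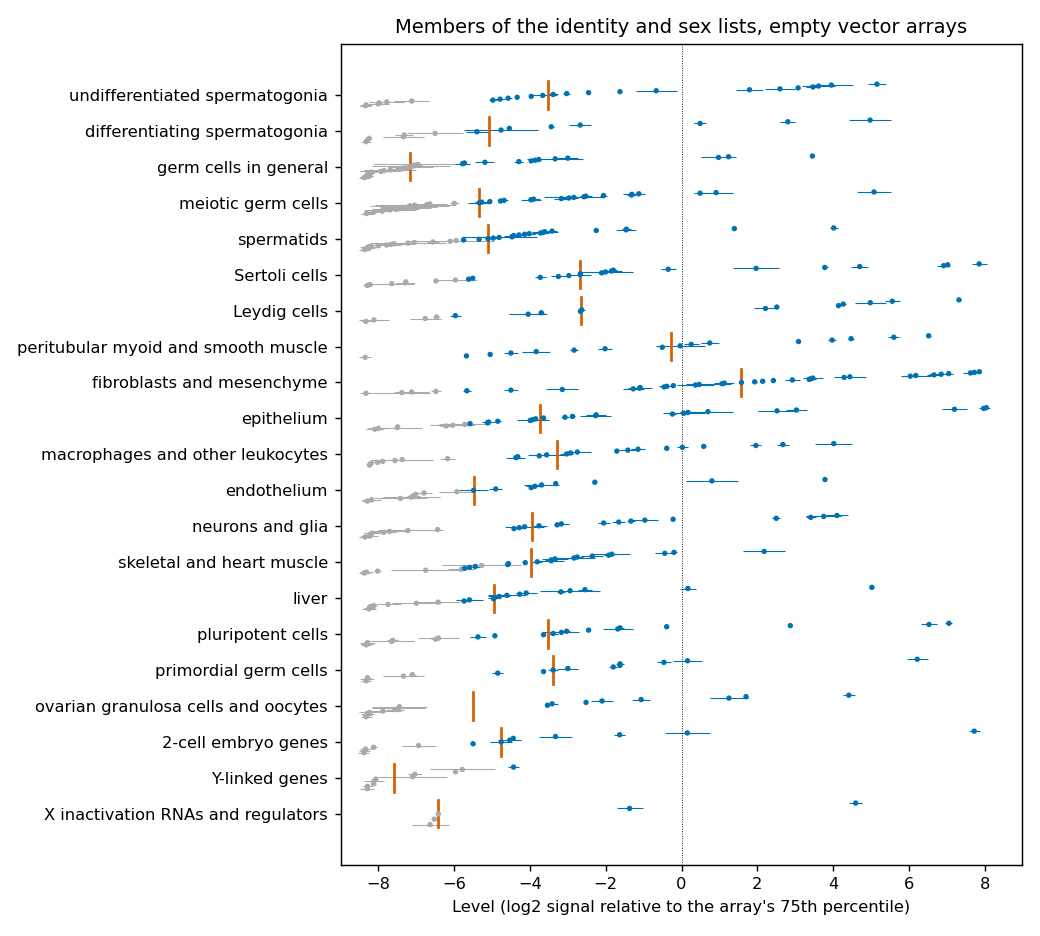
Mean level of each list member over the 2 empty vector arrays (points; the line spans both arrays), in log2 units above or below the 75th percentile, with 1 row of points per list. Blue members were well above background on both arrays, grey ones were not, and orange bars mark list medians. The fibroblast and mesenchyme list has its median at 1.58 and the germ cell list at -7.16.

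Some keratins stood out among the epithelial genes. Of 28 members 21 were expressed (75%) and 6 were above 0 (21.4%), against 74.3% and 44% of protein coding genes. Cdh1, E-cadherin, the junction protein that defines epithelia, was not well above background at -8.28 and -7.72 (chromosome 8, 109193812 to 109193871, plus strand), and the adhesion protein Epcam was flagged on 1 array at -5.06 and -6.39. Keratins 18 and 8 form a filament pair in simple epithelia. Krt18 stood at 7.86 and 8.09 (chromosome 15, 101862341 to 101862400, plus strand) and Krt8 at 0.03 and 1.37. Krt14, a keratin of basal layers, stood at 7.96 and 8.13 (chromosome 11, 100064495 to 100064554, minus strand), while its usual partner Krt5, named after its values were seen, read -4.35 and -3.50. Krt19, another simple keratin, read 6.86 and 7.54. The strong keratins Krt14, Krt18 and Krt19 have 1 probe each, and signal from a near-identical copy cannot be told apart with such a probe. Of all 51 measured keratins 31 were expressed (60.8%) and 8 were above 0 (15.7%). Ovol2 at 3.32 and 2.75 and Esrp2 at 3.02 and 2.03, a transcription factor and a splicing regulator of epithelia, were the other members above 2. The second probe of Ovol2 was not flagged, at -8.24 and -8.14.

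Cadherins and integrins tie cells to each other and to the matrix. Of 23 cadherins 9 were expressed (39.1%) and 4 were above 0 (17.4%), against 74.3% and 44% of protein coding genes. Among the 4 were N-cadherin, Cdh2, at 4.02 and 4.87, P-cadherin, Cdh3, at 3.93 and 4.10, and Cdh11, a cadherin of mesenchyme, at 2.73 and 3.12. Cdh4 at -8.49 and -6.59, Cdh5, the cadherin of endothelium, at -6.73 and -8.11 and Cdh9 at -6.79 and -7.25 were well above background on neither array. Of 26 integrins 21 were expressed (80.8%) and 11 were above 0 (42.3%), led by Itga7, a laminin receptor subunit, at 7.49 and 7.21, Itgav at 6.86 and 6.44, Itgb1, the common beta subunit, at 6.49 and 5.95 and Itga6. Collagens and basement membrane proteins had 28 of 30 members expressed (93.3%) and 20 above 0 (66.7%), among them the laminin chain Lama5 at 6.99 and 6.64. When every probe of a gene had to be flagged, 3 cadherins, 13 integrins and 17 collagens and basement membrane genes remained.

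Sertoli cell genes were mixed. Of 25 members 18 were expressed (72%) and 6 were above 0 (24%), against 74.3% and 44% of protein coding genes. Wt1, a zinc finger transcription factor of Sertoli cells and of the lining of body cavities, stood at 7.09 and 6.75 with 2 of 2 probes flagged (chromosome 2, 105013656 to 105013715, plus strand). Sox9, the factor that drives Sertoli cell fate, was flagged at -2.97 and -2.98, below level 0. The FSH receptor Fshr read -5.51 and -5.51, and the Sertoli hormone Amh was not well above background at -7.54 and -7.03 (chromosome 10, 80270334 to 80270393, plus strand). Among the strong members, clusterin, Clu, read 8.05 and 7.66 with 1 of its 2 probes flagged, and transferrin, Trf, 7.07 and 6.98 with 2 of 2. Gdnf, the growth factor for spermatogonial stem cells, stood at 4.93 and 4.48 (chromosome 15, 7787474 to 7787533, plus strand). Inhbb, an inhibin and activin subunit, read 3.70 and 3.86 and the ligand Dhh 2.57 and 1.36.

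Among Leydig cell genes, general enzymes had levels above 0 and the steroid-making ones did not. Of 16 members 12 were expressed (75%) and 7 were above 0 (43.8%), near the 74.3% and 44% of protein coding genes. Star, which brings cholesterol into mitochondria, read -4.55 and -3.55, the side-chain cleavage enzyme Cyp11a1 -6.12 and -5.82 and Cyp17a1, the next enzyme on the way to androgens, -2.54 and -2.73. All 3 were flagged below level 0. Hsd3b1 was not well above background at -6.36 and -7.17 and was singled out after its value was seen. The 7 above level 0 have roles in many cells, such as cytochrome b5, Cyb5a, at 7.36 and 7.28 and the P450 reductase Por at 5.76 and 5.36. The list of steroid and cholesterol synthesis had 23 of 24 members expressed and 17 above 0 (70.8%), with Sqle, squalene epoxidase, at 5.39 and 4.81, and aromatase, Cyp19a1, not well above background at -8.53 and -7.94.

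Ovarian genes were flagged less often than protein coding genes in general, with single strong members. Foxl2, the transcription factor of granulosa cells, stood at 4.26 and 4.57 (chromosome 9, 98856894 to 98856950, plus strand), and the AMH receptor Amhr2 read -0.82 and -1.31. The oocyte growth factor Gdf9 read -1.81 and -2.38. Of the 16 members 8 were expressed (50%) and 3 were above 0 (18.8%), against 74.3% and 44% of protein coding genes. Beside Foxl2, those above 0 were the signalling ligands Wnt4 at 1.64 and 1.76 and Rspo1 at 1.76 and 0.74.

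Lists for other cell types passed the flag at shares from 52.9% to 75%, where 74.3% of protein coding genes did. Their shares above 0 lay under the 44% of protein coding genes. Flagged were 16 of 24 leukocyte genes (66.7%), 9 of 17 endothelial (52.9%), 15 of 24 neural (62.5%), 18 of 24 muscle (75%) and 13 of 20 liver genes (65%). The share above 0 was 16.7% for leukocyte, 11.8% for endothelial, 16.7% for neural, 4.17% for muscle and 5% for liver genes. The common leukocyte antigen Ptprc read 1.82 and 2.11, but 5 of its 7 probes were not flagged. Adgre1, a macrophage receptor, was not well above background at -8.23 and -8.15, and the lysosomal protein Cd68 read 4.51 and 3.53. Pecam1, the endothelial adhesion molecule, read -3.28 and -3.36 and Myod1, the muscle regulator, -5.48 and -5.40. Albumin, Alb, read -4.99 and -4.93 and Foxa2, a factor of endoderm, 4.98 and 5.07. The microtubule protein Map2 stood at 4.21 and 3.30 with 5 of 7 probes flagged, and the neuronal marker Rbfox3 was not well above background at -6.58 and -6.30.

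Genes of pluripotent and early germ cells mostly lay below level 0, with a few strong exceptions. Of 20 pluripotency genes 13 were expressed (65%) and 3 were above 0 (15%), against 74.3% and 44% of protein coding genes. Pou5f1 read -1.73 and -1.52 and Nanog -2.69 and -3.65, both flagged. Zfp42, at -6.96 and -5.87, and Sox2, at -8.46 and -8.18, were not well above background. These 4 encode transcription factors of embryonic stem cells. The 3 above 0 were Klf2 at 7.15 and 6.97 and Klf4 at 6.33 and 6.74, zinc finger factors of many tissues, and the embryonic co-receptor Tdgf1 at 2.92 and 2.82. The Tdgf1 value rests on its strongest probe. Another flagged probe read -2.90 and -2.92, and the rest were not flagged, the weakest at -8.35 and -8.24. Of 15 genes of primordial germ cells 10 were expressed and 1 was above 0, the antiviral membrane protein Ifitm3 at 5.94 and 6.50. Dppa3 was not well above background at -8.38 and -8.20, Tfap2c at -7.01 and -7.20, and Prdm1 read -4.99 and -4.71. Of 13 genes of the early embryo 8 were expressed. The 1 above 0 was Sp110, a nuclear body protein that is also induced by interferon, at 7.88 and 7.58, while Zscan4c read -4.44 and -4.45.

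**Figure D4:**
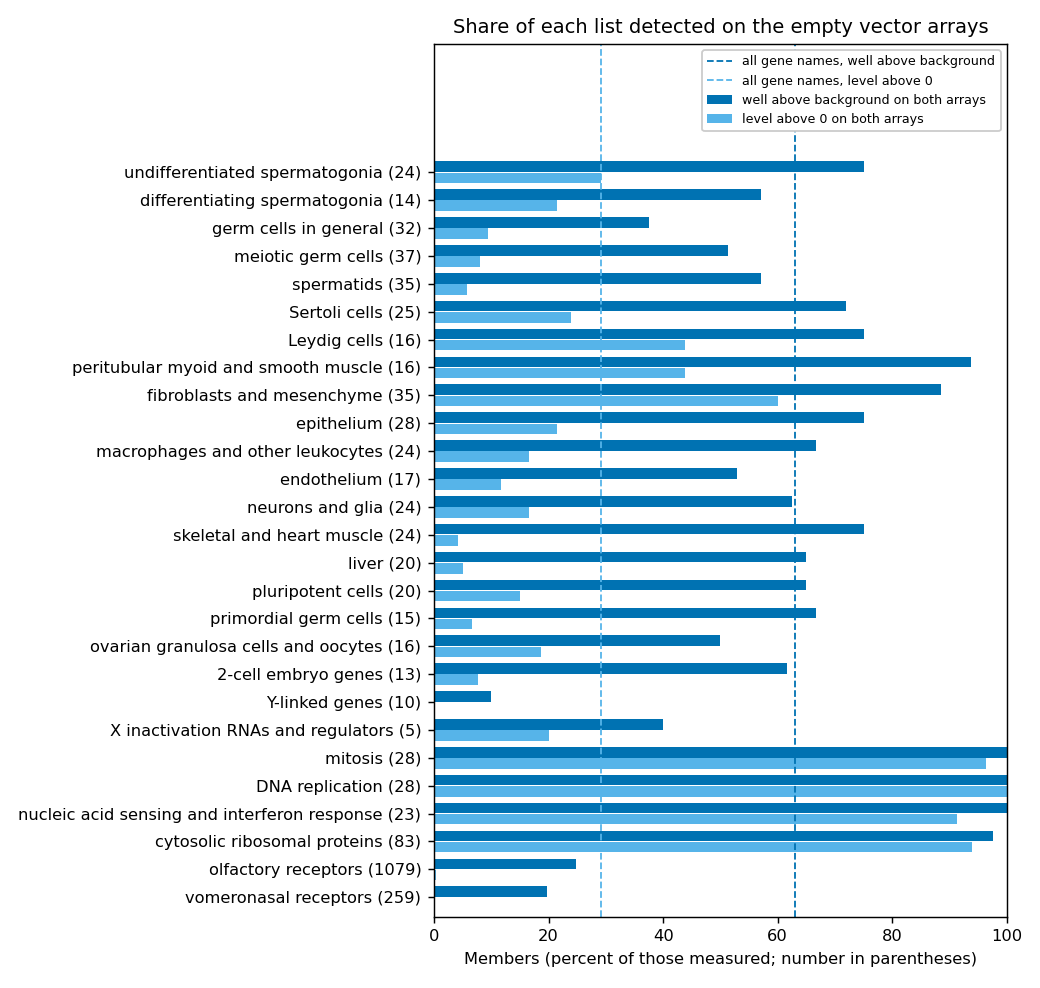
Percent of measured members of each list (number in parentheses) that were well above background on both arrays (dark bars) or had levels above 0 on both arrays (light bars). Dashed lines mark the shares over all gene names, 63% and 29.1%. Mitosis, DNA replication and ribosomal protein lists reach the right edge or nearly so. Germ cell, meiotic and Y-linked lists fall short of both lines, as do others such as the endothelial, ovarian and neural lists.

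Ribosomal proteins were frequent among the strongest probe signals. Among the 30 gene names with a RefSeq symbol and the highest mean level were 9 cytosolic ribosomal proteins, and of 83 such genes 81 were expressed, with a median level of 7.39. Tuba1b, an alpha tubulin, led at 8.81 and 8.69, followed by the calcium-binding protein S100a6 at 8.52 and 8.52, Rps10 at 8.54 and 8.44 and the respiratory subunit Cox6a1 at 8.55 and 8.37. Also among the 30 were progranulin, Grn, at 8.48 and 8.40, ubiquitin, Ubb, at 8.50 and 8.37, annexin, Anxa2, at 8.33 and 8.33, beta-actin, Actb, at 8.15 and 8.13, and the stress response factor Atf4 at 8.30 and 8.24. Glycolysis gave 2 of the 30, aldolase, Aldoa, at 8.45 and 8.41 and Pgk1 at 8.51 and 8.29. Of 28 glycolysis genes 24 were expressed (85.7%) and 20 were above 0 (71.4%), against 74.3% and 44% of protein coding genes. Among those not well above background were the sperm form of lactate dehydrogenase, Ldhc, at -6.11 and -7.34 and the glucose transporter Slc2a3 at -8.41 and -7.89.

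Cell division genes were expressed without exception. All 28 mitosis genes and all 28 DNA replication genes passed the flag on both arrays, with medians of 4.28 and 4.80, and 27 and 28 of them had levels above 0. Among protein coding genes 74.3% passed the flag and 44% had levels above 0. The mitotic regulators Birc5, at 7.0 and 6.24, Aurka, at 6.64 and 6.43, Pttg1, at 6.70 and 6.27, and Incenp, at 6.54 and 6.09, had the highest levels of their list. The replicative helicase subunit Mcm6 stood at 7.69 and 7.52 and the sliding clamp Pcna at 7.04 and 6.86. In the list of p53 and RB control, 25 of 25 genes were expressed and 18 were above 0 (72%). Cdkn2a, which encodes the inhibitors p16 and ARF, stood at 7.05 and 7.01 with 2 of 2 probes flagged (chromosome 4, 88920405 to 88920464, minus strand). Ccnd3 read 6.02 and 5.77 and Cdk4, the kinase that p16 inhibits, 5.53 and 5.55. Trp53, which encodes p53, differed between the arrays at -0.43 and 1.61 and was singled out for that after its values were seen.

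All 23 genes of the list for DNA methylation and germline silencing passed the flag, 18 of them with levels above 0 (78.3%). The shares of protein coding genes were 74.3% and 44%. When every probe of a gene had to be flagged, 14 of the 23 remained. Mbd1, a methyl-CpG binding protein, stood at 7.45 and 7.17, the histone methyltransferase Ehmt2 at 6.32 and 6.33, the corepressor Trim28 at 5.50 and 5.55 and the thymine DNA glycosylase Tdg at 5.32 and 4.93. Uhrf1 at 4.85 and 4.57, Dnmt1 at 2.59 and 2.32 and Dnmt3a at 2.24 and 1.55 keep and set DNA methylation. E2f6 at 3.0 and 2.75, Pcgf6 at 2.06 and 2.06, Mga at 1.74 and 2.01 and Max at 2.31 and 2.76 belong to a Polycomb complex known to repress germ cell genes. These last 7 were named after their values were seen. Dnmt3l, the cofactor of methylation in germ cells, read -3.44 and -3.08 and was singled out in the same way.

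The 2 empty vector arrays were close for most genes. Over the 23338 expressed names the levels correlated with r = 0.991 across genes, which share the arrays and are not replicates. The median absolute difference was 0.27 on the log2 scale, and 1161 names (4.97%) differed by at least 2-fold, 446 with the higher level on empty vector 1 (1.91%) and 715 on empty vector 2 (3.06%). The share past 2-fold in 4 level classes of equal size, from the lowest to the highest, was 6.63%, 7.82%, 4.06% and 1.39%. With median scaling the split was 604 against 581. Repeated spots of 1 probe had a median SD of 0.038 and 0.047 log2 units within an array.

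Genes of nucleic acid sensing and the interferon response were expressed on both arrays and stood higher on empty vector 2. This pathway detects foreign DNA or RNA, induces interferon beta and then a set of antiviral genes. All 23 members were expressed, 21 with levels above 0, where 74.3% and 44% of protein coding genes were. The transcription factor Irf7 stood at 7.59 and 8.11, the ubiquitin-like modifier Isg15 at 7.09 and 7.80 and the RNA-sensing enzyme Oas1a at 6.87 and 7.19. Of the 23, 19 were higher on empty vector 2, where 47.8% of all expressed names were, and 8 were higher there by at least 2-fold, where 3.06% of all expressed names were. The median difference was 0.49 on the log2 scale. Ifnb1, interferon beta, read -2.90 and -0.12. The antiviral genes Ifit1, at 3.61 and 5.40, Rsad2, at 4.11 and 5.77, Ifit3, at 4.83 and 6.09, Mx1, at 1.32 and 2.57, and Mx2, at 3.55 and 4.89, and the RNA sensor Tlr3, at -4.42 and -3.02, were among the others, and were named after their values were seen. On the Hdac6 vector arrays 1 and 2 Ifnb1 read -2.96 and -2.72 and Ifit1 4.49 and 4.69, below empty vector 2 in each case. Under 7 other scalings or settings, 15 to 19 of the 23 were higher on empty vector 2 and 6 to 8 were higher by at least 2-fold.

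Several other lists leaned the other way by small amounts. Of 28 mitosis genes 3 were higher on empty vector 2, with a median difference of -0.29, and of 28 DNA replication genes 5 were, with a median of -0.13. Of 23 expressed genes of steroid and cholesterol synthesis 4 were higher there (median -0.37), and of 81 ribosomal proteins 22 (median -0.10). The median over all expressed names was -0.02. Under the 7 other settings, 3 to 5 mitosis genes, 4 to 11 replication genes, 3 to 5 cholesterol genes and 15 to 40 ribosomal proteins were higher on empty vector 2, and quantile normalization put the ribosomal median at 0. The largest single differences were mostly at low levels. Higher on empty vector 2 were the lectin Clec2d at -2.87 and 0.58, the chemokine Ccl20 at -4.55 and -1.44 and the linker histone Hist1h1b at -1.56 and 1.17. Higher on empty vector 1 were Xirp2, an actin-binding protein of muscle, at -2.92 and -5.53, the ETS factor Spdef at -0.35 and -2.83 and the hormone Retn at -2.35 and -4.59. The cause of the difference between the arrays was not tested.

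**Figure D5:**
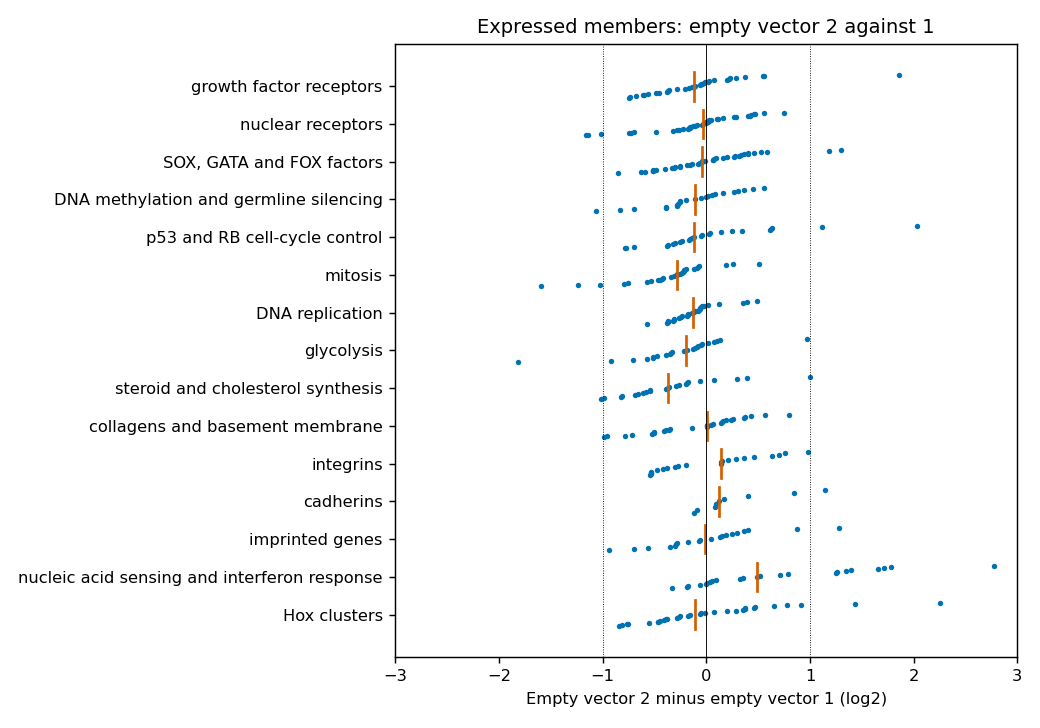
Difference of empty vector 2 minus empty vector 1 on the log2 scale for each expressed member of the listed pathways (points), with list medians as orange bars and dotted lines at 2-fold. The interferon list has its median at 0.49, with Ifnb1 farthest to the right, and the mitosis list has its median at -0.29.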

How the data were processed

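RNA of 4 GC-1 samples was labelled with Cy3 and hybridised to Agilent arrays. Per the file headers, the deposited scanner files hold spot intensity values from Feature Extraction 11.5.1.1 (protocol GE1_1105_Oct12), background-subtracted and not normalized between arrays, with probe positions in build mm9. The authors also deposited a table of log2 values. The steps behind it are not given in the sources used here, and it served as an alternative. Outlier-flagged spots were left out, log2 intensities were averaged per probe, and the 75th percentile over probes was subtracted. Names came from the files and from RefSeq (GRCm38.p6), which matched 24984 of 37072 gene names and gave the promoters. No coordinates were converted, and exon positions of probes were not analysed here.

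The members, lists and second band were chosen with earlier results of these data known. Named were the first 4 genes of identity and sex lists and their highest expressed members, up to 4 highest and 4 undetected members of other lists, the 30 highest names, and the 10 largest differences per direction. Alternatives covered the call, scaling, background correction (limma 3.58.1 in R 4.3.3), probe choice and left-out arrays. The functions were tested on simulated data. Python 3.11.15 with pandas 2.3.3 was used. Some members of the lists are not reported here by name.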

Additional observations from a re-analysis of the deposited data

How the results depend on the processing

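No paired analysis was possible because the results come from no test. The number of expressed names stayed within 1.5 times of 23338 under all 8 alternatives, with 23949 to 24476 when 1 array made the call. It ran from 17958 with the authors' value table, and 19247 when every probe had to be flagged, to 28379 with the software's weaker flag. Of the Hdac6 vector arrays, 1 array alone gave 22565 to 23572. The ratio of CpG-rich shares, 3.96, stayed between 3.22 and 4.62. Counts per list depended on the call. Requiring every probe of a gene left 5 of 8 expressed genes of differentiating spermatogonia, 7 of 12 germ cell, 11 of 19 meiotic, 13 of 20 spermatid, 7 of 15 smooth muscle, 5 of 9 endothelial, 7 of 15 neural, 10 of 18 muscle, 7 of 13 pluripotency, 6 of 10 primordial germ cell, 5 of 8 early embryo, 0 of 1 Y-linked, 14 of 23 DNA methylation, 20 of 39 nuclear receptor, 17 of 28 collagen, 13 of 21 integrin and 3 of 9 cadherin genes. The authors' value table, with calls above its median, gave 5 for differentiating spermatogonia, 6 germ cell, 12 meiotic, 8 spermatid, 4 endothelial, 5 liver, 4 early embryo and 0 Y-linked genes. The software's weaker flag gave 19 germ cell, 14 endothelial, 5 Y-linked and 5 X inactivation genes, and a floor at the 99th percentile of negative controls gave 14, 5 and 5 for the last 3. Both of these calls gave 17 cadherins. With 1 array making the call, 1 to 3 Y-linked genes were expressed. The cause of these shifts was not tested. Names at least 2-fold apart between the arrays numbered 3322 without the filter on dim probes and 514 with normexp. With the percentile taken over spots, chosen after seeing the data, 9668 names lay above level 0, with 2 germ cell, 1 meiotic, 2 differentiating spermatogonial, 1 endothelial, 1 olfactory receptor and 20 mesenchymal genes.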

Other observations

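Several gene groups outside cell identity were also measured. Of 39 Hox genes, which mark position along the body axis, 32 were expressed (82.1%) and 15 were above 0 (38.5%). The highest levels in their list were Hoxc6 at 4.73 and 3.92, Hoxb7 at 4.24 and 3.80, Hoxb4 at 3.96 and 3.20 and Hoxc9 at 3.57 and 3.52. Hoxb1 at -8.30 and -8.23, Hoxc11 at -8.49 and -7.62, Hoxd1 at -8.50 and -8.15 and Hoxd11 at -8.46 and -8.20 were well above background on neither array. Of 43 growth factor receptors 34 were expressed (79.1%) and 19 were above 0 (44.2%), led by Axl at 7.44 and 7.47, Fgfr1 at 6.51 and 5.90, Epha2 at 5.71 and 5.44 and Ddr1 at 5.52 and 5.32. Of 48 nuclear receptors 39 were expressed (81.2%) and 22 were above 0 (45.8%), with Rora at 5.50 and 4.34, Nr1h2 at 4.97 and 4.81 and Rxrb at 4.91 and 4.63 among the highest. Over all protein coding genes the shares were 74.3% and 44%.

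Of 30 imprinted genes, which are read from 1 parental copy, 20 were expressed (66.7%) and 8 were above 0 (26.7%). Gnas stood at 7.76 and 7.80 and Igf2r, the receptor that clears the growth factor IGF-II, at 3.74 and 3.18. H19 was flagged on 1 array at -5.33 and -6.03, and Igf2, its neighbour, read -3.21 and -3.27; both were named after their values were seen. Snrpn at -6.38 and -5.90 and Ndn at -6.92 and -8.22 were well above background on neither array. Of 20 Mage genes 6 were expressed and 4 were above 0, and of 22 Rhox genes 12 were expressed and 2 were above 0.

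Of 55 SOX, GATA and FOX factors 40 were expressed and 19 were above 0, led by Sox5 at 5.63 and 5.83, with 3 of 6 probes flagged, and Foxa2. Further strong genes, which apart from Gata6 stand in no list, were chosen after their values were seen. Msln, mesothelin, a surface protein of the cells that line body cavities, stood at 8.07 and 7.92. The uroplakins Upk1b, at 6.14 and 6.87, and Upk3b, at 4.69 and 4.85, which are membrane proteins of lining epithelia, were expressed too, as were the transcription factors Bnc1 at 2.62 and 3.12 and Gata6 at 3.97 and 3.93. Spp1, osteopontin, stood at 8.17 and 7.82. No marker list for lining cells had been fixed, so these values name no cell type.

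Some strong signals rest on a single probe of several. Slc10a1, the bile acid transporter of liver, was among the 30 highest at 8.26 and 8.15, and its second probe read -7.65 and -8.19. Elk1 read 8.28 and 8.05 by its strongest probe, while another of its 3 probes read -8.42 and -8.16. For Clu the second probe read -8.33 and -8.09, and for Pgk1 -8.29 and -8.15. Among 11876 gene names with more than 1 probe, 4099 (34.5%) had flagged and unflagged probes side by side.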
